A study of Mus musculus with 18 samples.

Results

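The cytosolic ribosomal protein genes are the genes whose annotated symbol begins with Rpl or Rps followed by a digit, p or a, without the Rps6k kinases and without symbols that contain -ps. The rule found 50 genes among the 18194 genes with a symbol of their own on the array, 26 with an Rpl symbol (large subunit) and 24 with an Rps symbol (small subunit). These 50 genes are covered by 106 probe sets. Each gene was represented by its probe set with the highest mean over all 18 arrays. The selection used symbols and brightness only, and no difference between groups. A further 31 symbols of the family, Rpl3, Rpl5, Rpl10, Rpl23, Rpl26 and Rplp1 among them, occur only on probe sets that list several genes and were not used.

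The study measured RNA on Affymetrix whole-genome mouse arrays in mouse embryonic fibroblasts (MEFs), primary cells grown out of embryos, here of day E13.5 and used at passage 3. There were 3 genotypes: wild type (WT), Atf4-/- and Cebpg-/-, the knockouts lacking the transcription factors ATF4 and C/EBPγ. Cells of each genotype were plated for 24 h. They then spent 3 h either in normal medium or in AAD medium, a supplemented Krebs-Ringer buffer for amino acid deprivation, which gave 6 groups of 3 arrays. The labels do not say whether the 3 arrays of a group came from separate embryos or cultures, so a p-value here reflects the scatter of the arrays alone, and that scatter may be technical.

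Ribosomal proteins assemble with ribosomal RNA into the large and small subunits, and growing cells make their mRNAs in great amounts. Most of these mRNAs begin with a run of pyrimidines, the 5′ terminal oligopyrimidine (TOP) motif, through which the amino acid sensor mTORC1 adjusts how strongly they are translated. ATF4 is the activator that is made when amino acids run short, and C/EBPγ is a bZIP partner of it. The arrays report the amount of RNA, not its loading on ribosomes.

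The bases around the RefSeq start sites (GRCm38.p6, mouse) are shown for 10 members, because the pyrimidine run at the start is the feature that the class is known for. The first 6 are genes with a probe set that fell in AAD medium, and the next 2 are examples whose brightest probe sets were not called there. The brightest probe sets of the first 6 were not called there either, except that of Rpl12. Rps18, among the next 2, had a dimmer probe set that fell in Cebpg-/- cells. The last 2 are the canonical members with the largest rise and the largest fall in Atf4-/- against WT cells in normal medium. Rps19bp1, Rpl7l1 and Rps27l also had a probe set that fell and are not shown. Their longest pyrimidine runs were 3 for Rps19bp1, 2 for Rpl7l1, and 9 and 4 at the starts of Rps27l. Rps24 has another annotated start, not shown, with a longest run of 4. Each window holds 15 bases before and 15 from the annotated start on, 5′ to 3′ on the gene's strand, and capitals mark the longest run of C and T where it has at least 7 letters.
Rpl12 (chr2:32961697-32961726, + strand): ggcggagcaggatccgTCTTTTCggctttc
Rps9 (chr7:3704026-3704055, + strand): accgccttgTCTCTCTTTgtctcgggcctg
Rps24 (chr14:24490663-24490692, + strand): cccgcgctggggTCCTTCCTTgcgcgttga
Rps10 (chr17:27635230-27635259, - strand): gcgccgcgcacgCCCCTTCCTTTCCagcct
Rpl35 (chr2:39005117-39005146, - strand): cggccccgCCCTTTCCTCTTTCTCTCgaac
Rpl41 (chr10:128549154-128549183, - strand): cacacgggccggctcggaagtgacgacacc
Rpl7a (chr2:26910792-26910821, + strand): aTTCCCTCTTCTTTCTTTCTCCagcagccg
Rps18 (chr17:33955651-33955680, - strand): tacgtcacttccgCTCTCTCTTCCacagga
Rps6 (chr4:86857353-86857382, - strand): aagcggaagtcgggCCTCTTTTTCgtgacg
Rps25 (chr9:44407699-44407728, + strand): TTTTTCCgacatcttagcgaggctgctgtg

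RefSeq promoter windows of 44 of the 50 genes were used, with 52 annotated starts. Rps14 is among the genes without a window here. Member starts on its chromosome were left out, whereas the starts of all genes were not filtered in this way. The members' shares below therefore describe the starts kept and not every annotated start of the class. A run of at least 7 pyrimidines lay within 15 bases of the start, on the gene's strand, at 24 of the 52 starts (46.2%), against 18.6% of the 32851 starts of all genes. On the other strand the same search found a run at 3 starts (5.8%), against 20.3% of all starts. Rpl7a had the longest run, 21 letters, and the window of Rpl41 had none of 7 letters. The letters CCGGAA, the core of ETS family sites, were found on either strand within the 300 bases from 250 before to 50 after the start at 28 of the 52 starts (53.8%), against 14.9% of all starts. TGATGNAA, the core that ATF4 and C/EBP pairs are known to bind, was in 0 of the 52 windows, against 4.0% of all, and the ATF core TGACGT in 6 (11.5%), against 7.5%. A match describes the letters only, and annotated starts can differ from the starts used in these cells.

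Several facts of the whole series bear on these genes. Of the 18194 genes, 13728 had a mean log2 signal of at least 4.65 in at least 1 group and were tested with limma. A gene was called at a Benjamini-Hochberg adjusted p under 0.05 over all 13728 genes. The array medians lay between 5.21 and 5.27, and no array stood apart in them. The Atf4 signal was 12.10 ± 0.07 (SD, n = 3) in WT and 6.50 ± 0.16 in Atf4-/- cells in normal medium, whereas the Cebpg probe set read 9.27 ± 0.09 in WT and 9.31 ± 0.06 in Cebpg-/- cells and does not check that deletion. All 11 fibroblast markers on the array were above the floor in every group, but their level moved with genotype. Their summed log2 signal in normal medium was 16.06 to 16.12 in WT, 15.48 to 15.57 in Atf4-/- and 15.62 to 15.77 in Cebpg-/- cells. Of 13 macrophage markers, 12 were above the floor in WT and Atf4-/- cells, all but Itgam, and 13 in Cebpg-/- cells. Markers of other cell types were above it too. Per group these were 2 to 4 of 4 neural, 4 to 5 of 6 epithelial, 2 of 7 endothelial and 1 of 4 skeletal muscle markers. The summed log2 signal of the macrophage markers in normal medium was 12.41 to 12.48 in WT and 13.10 to 13.45 in Atf4-/- cells. In Cebpg-/- cells it reached 13.92, and every array there lay above all Atf4-/- arrays. In AAD medium it was 11.68 to 11.77 in WT, 12.41 to 12.90 in Atf4-/- and 12.63 to 13.06 in Cebpg-/- cells. In bulk RNA, a change in the number of cells of a type and a change of RNA per cell cannot be told apart. The part of these markers in the differences below was not tested.

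Of the 50 genes, 48 passed the floor. Rps16, with a mean log2 signal of 3.42, and Rpl3l, the muscle relative of Rpl3, with 3.50, stayed below it, and the 48 are therefore not all members. The signals fell into separate ranges: 36 genes had a mean between 12.44 and 14.16, near the top of the scale (the highest value on any array was 14.56), and 12 genes lay between 5.88 and 10.70. The highest probe set signals belonged to Rps2 (14.16), Rps29 (14.10), the stalk protein genes Rplp2 (14.08) and Rplp0 (14.07) and Rpl41 (14.07). Among the tested genes the lowest belonged to Rpl39 (5.88), Rps27 (7.64) and Rpl27a (8.49). Signals of different probe sets depend on their probes, so these numbers do not rank the mRNAs. Within groups the members varied little. The median residual SD was 0.0334 log2 units for the 48 members and 0.0307 for the 36 bright ones, against 0.109 for all genes tested and 0.0566 for the other 316 genes with a mean of at least 12.

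The first question was what 3 h in AAD medium did to these mRNAs. In WT cells none of the 48 genes rose and 4 fell: Rpl12, Rps19bp1, Rps25 and Rps27l. Over all genes tested 28.2% were called, so the members' share of calls was below the background, as was the 1 of 36 among bright members against 19.6% of the 352 genes with a mean of at least 12. Only Rpl12 was called in Atf4-/- cells, and it fell, where 4.7% of all genes and 1.99% of the genes with a mean of at least 12 were called. With the replicate number as a block, 2 members were called there. In Cebpg-/- cells Rpl12, Rps19bp1 and Rps25 fell, where 21.9% of all genes and 11.6% of those with a mean of at least 12 were called. The members' median change was -0.0003 in WT, 0.012 in Atf4-/- and 0.0004 in Cebpg-/- cells, beside -0.008, 0.008 and -0.021 over all genes tested.

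The signals of the 36 bright genes moved little in all 3 genotypes. Their log2 changes in AAD medium ran from -0.17 (Rps27l) to 0.06 (Rps18) in WT, from -0.03 (Rpl11) to 0.06 (Rpsa) in Atf4-/- and from -0.09 (Rps27l) to 0.12 (Rpl22l1) in Cebpg-/- cells. The 95% intervals of all 36 changes lay within ±0.3 in each genotype. Near the top of the scale the array may record less than the full change, and whether it did so here was not tested. Among the other 316 genes with a mean of at least 12, 26 rose and 42 fell in WT cells, with changes from -1.06 to 1.48. At the level of the brighter 18 members, a mean of at least 13.84, there were 11 other genes. Limma called 0 of these 11 in WT cells, with 2 at an unadjusted p under 0.05, and their changes ran from -0.11 to 0.09. The small changes of the brightest members are thus not set apart from those of other genes at their level. The stalk genes show how close the arrays were. Rplp0, whose protein anchors the stalk, read 13.98, 13.99 and 14.01 in WT cells in normal medium and 13.99, 14.04 and 14.02 in AAD medium, groups that overlap. Rplp2, a tip protein of the stalk, read 14.07, 14.06 and 14.03 in normal medium and 14.05 on each array in AAD medium.

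Rpl12, whose protein sits at the base of the stalk, changed most. It read 9.24, 9.40 and 9.30 in WT cells in normal medium and 8.46, 8.38 and 8.24 in AAD medium. The Atf4-/- arrays read 9.42, 9.34 and 9.49 and then 9.08, 9.06 and 8.95. The Cebpg-/- arrays read 9.36, 9.33 and 9.23 and then 8.37, 8.35 and 8.63. The media did not overlap in any genotype, and the Atf4-/- arrays in AAD medium lay above all other AAD arrays. It fell by 0.95 ± 0.08 (SE) on the log2 scale in WT cells (limma, adjusted p = 2.42e-07), to 51.7% of the level in normal medium. It fell by 0.38 ± 0.08 in Atf4-/- cells (limma, adjusted p = 0.0108) and by 0.86 ± 0.08 in Cebpg-/- cells (limma, adjusted p = 1.23e-06). Rpl12 has 1 probe set with a symbol of its own. Without replicate 3 of the Atf4-/- AAD arrays its fall in Atf4-/- cells had an adjusted p of 0.0588.

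Rps19bp1 matches the symbol rule but encodes a nucleolar protein that binds RPS19 and not a ribosomal protein. It read 9.26, 9.28 and 9.25 in WT cells in normal medium and 8.84, 8.98 and 8.79 in AAD medium, without overlap. It fell by 0.39 ± 0.06 (limma, adjusted p = 0.000126) in WT and by 0.30 ± 0.06 (limma, adjusted p = 0.0017) in Cebpg-/- cells. Its change in Atf4-/- cells was -0.09 ± 0.06 (limma, adjusted p = 0.54).

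Rps25, a small subunit protein used in initiation at viral internal ribosome entry sites, read 10.51, 10.72 and 10.68 in WT cells in normal medium and 10.35, 10.44 and 10.46 in AAD medium. The groups did not overlap, and it fell by 0.22 ± 0.07 in WT (limma, adjusted p = 0.0222) and by 0.23 ± 0.07 in Cebpg-/- cells (limma, adjusted p = 0.0229). Leaving out any of 3 arrays ended the WT call (AAD replicate 1, normal replicate 2 or normal replicate 3). Leaving out any of 4 ended the Cebpg-/- call (normal replicates 1 and 2, AAD replicates 2 and 3). Both calls were also lost in the fit of the compared groups alone. Rps27l, the paralogue of Rps27 and a known target gene of p53, read 12.92, 12.95 and 12.87 and then 12.76, 12.77 and 12.69 in WT cells. It fell by 0.17 ± 0.05 (limma, adjusted p = 0.0133). The call was lost without normal replicate 2, without AAD replicate 3 and in the fit of the compared groups alone.

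The other probe sets of the same genes were examined after the values had been seen. A fit over the 28721 probe sets above the floor held 102 probe sets of members, 70 with a mean of at least 12 and 32 below it. Of the 54 that were not the brightest of their gene, 8 fell in WT, 4 in Atf4-/- and 7 in Cebpg-/- cells, and 0 rose. Of the 70 bright ones, 0 rose and 2 fell in WT cells, both of Rps27l, and limma called 0 in Atf4-/- and 0 in Cebpg-/- cells. At an unadjusted p under 0.05, 1 of the 70 rose and 0 fell in Cebpg-/- cells and 0 of the 70 in Atf4-/- cells. Of the 32 dimmer ones, which belong to 24 genes, 10 fell in WT, 5 in Atf4-/- and 10 in Cebpg-/- cells, and 0 rose in any genotype by limma or at an unadjusted p under 0.05. The share of all probe sets called was 26.2% in WT, 3.57% in Atf4-/- and 19.3% in Cebpg-/- cells, in either direction. The share among the 54 was below this in WT and Cebpg-/- cells and above it in Atf4-/- cells. Of all 28020 probe sets with a mean under 12, 3917 fell and 3480 rose in WT cells. In Atf4-/- cells 440 of them fell and 577 rose, and in Cebpg-/- cells 2585 fell and 2891 rose. The 10 in WT cells include the probe sets of Rpl12, Rps19bp1 and Rps25 described above and belong to 9 genes. Leaving out 1 array at a time, 9 to 11 dimmer probe sets fell in WT cells. With Atf4-/- cells the range was 3 to 6, with 3 both without normal replicate 1 and without AAD replicate 3. With Cebpg-/- cells it was 6 to 8, with 6 both without normal replicate 1 and without normal replicate 2. With the replicate number as a block, which pairs the media, 11, 7 and 12 of the dimmer probe sets fell in WT, Atf4-/- and Cebpg-/- cells.

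**Figure D1:**
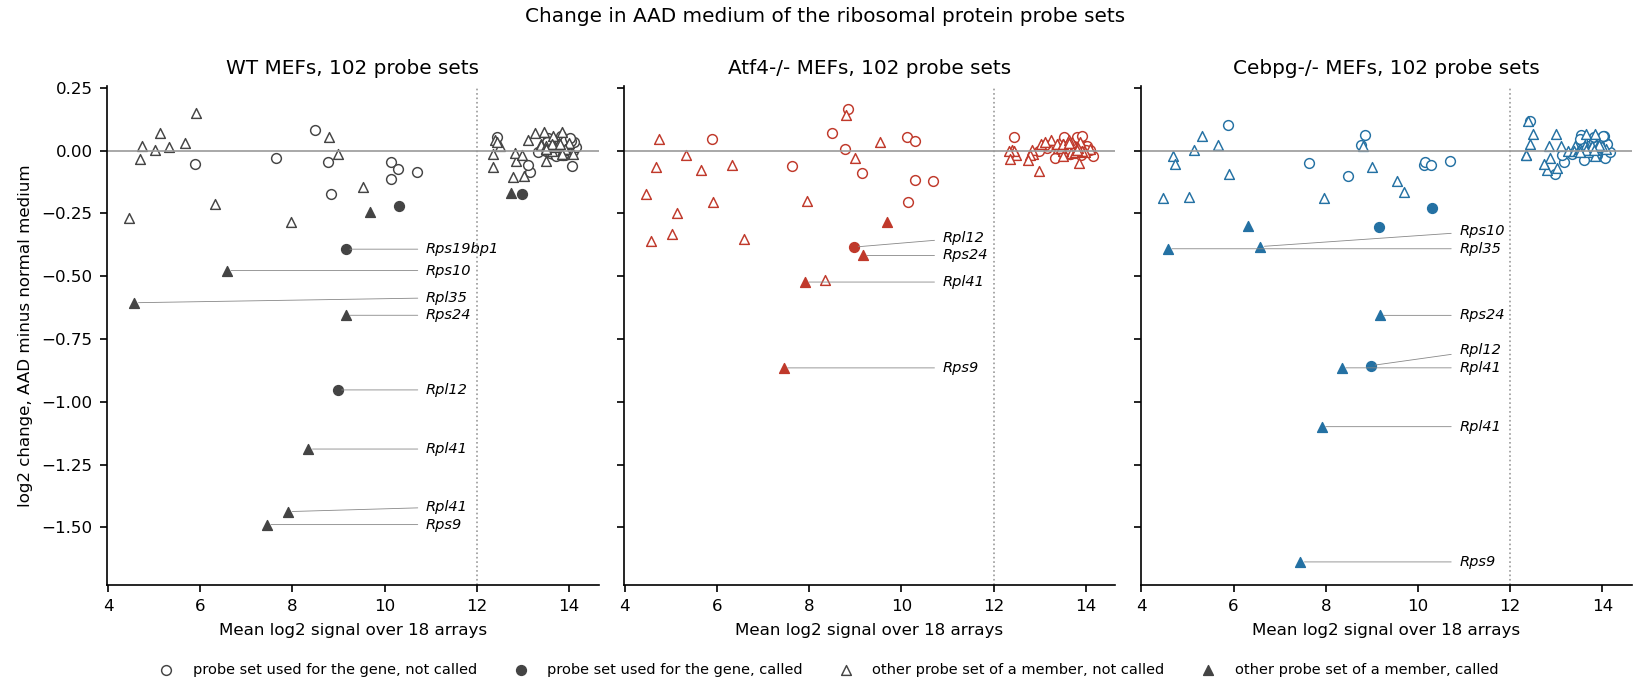
Each point is 1 of the 102 tested probe sets of ribosomal protein genes. The x axis is its mean log2 signal over 18 arrays, and the y axis is its log2 change in AAD minus normal medium in WT, Atf4-/- and Cebpg-/- MEFs. Circles are the probe sets used for the genes, triangles their other probe sets, and filled symbols were called at an adjusted p under 0.05. The 70 probe sets to the right of the dotted line at 12 stay near 0, and the probe sets that fell most, to -1.49 in WT and -1.64 in Cebpg-/- cells for Rps9, lie to its left.

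Rps9, a small subunit protein of the mRNA entry side, shows the contrast most clearly. Its brightest probe set read 13.44, 13.49 and 13.42 in WT cells in normal medium and 13.48, 13.51 and 13.42 in AAD medium, a change of 0.02. Its probe set 1426958_at read 8.12, 7.94 and 8.10 and then 6.56, 6.62 and 6.50, with no overlap. That probe set fell by 1.49 ± 0.14 in WT cells (limma, adjusted p = 7.8e-07). It fell by 0.87 ± 0.14 in Atf4-/- cells (limma, adjusted p = 0.0019) and fell by 1.64 ± 0.14 in Cebpg-/- cells (limma, adjusted p = 4.6e-07).

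Rpl41, the smallest ribosomal protein, had 2 such probe sets. Probe set 1433530_at read 8.49, 8.32 and 8.38 in WT cells in normal medium and 7.15, 6.95 and 6.78 in AAD medium. It fell by 1.44 ± 0.09 in WT, 0.52 ± 0.09 in Atf4-/- and 1.10 ± 0.09 in Cebpg-/- cells. Probe set 1454639_x_at fell by 1.19 ± 0.15 in WT and 0.86 ± 0.15 in Cebpg-/- cells, and its change in Atf4-/- cells was -0.52 ± 0.15 (limma, adjusted p = 0.0672). The brightest probe set of Rpl41 changed by -0.06 in WT cells.

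Rps24, a small subunit protein mutated in Diamond-Blackfan anaemia, and Rps10, another gene of that disease, followed the same pattern at a smaller size. Rps24 probe set 1455195_at read 9.30, 9.29 and 9.33 in WT cells in normal medium and 8.70, 8.73 and 8.54 in AAD medium. It fell by 0.66 ± 0.08 in WT, 0.42 ± 0.08 in Atf4-/- and 0.66 ± 0.08 in Cebpg-/- cells. Rps10 probe set 1436384_at fell by 0.48 ± 0.11 in WT and 0.38 ± 0.11 in Cebpg-/- cells, and its change in Atf4-/- cells was -0.35 ± 0.11 (limma, adjusted p = 0.115). A probe set of Rpl35 with a mean of 4.57, at the floor, fell by 0.61 ± 0.13 in WT and 0.39 ± 0.13 in Cebpg-/- cells, beside -0.36 ± 0.13 (limma, adjusted p = 0.155) in Atf4-/- cells. A probe set of Rpl7l1 fell in WT (-0.24) and Atf4-/- cells (-0.28), and 1 of Rps18 in Cebpg-/- cells (-0.30). The brightest probe sets of Rps24, Rps10 and Rpl35 were not called in any genotype. Where on the transcripts the dimmer probe sets lie was not analysed here, so it is not known whether they read the same RNA as the bright ones.

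**Figure D2:**
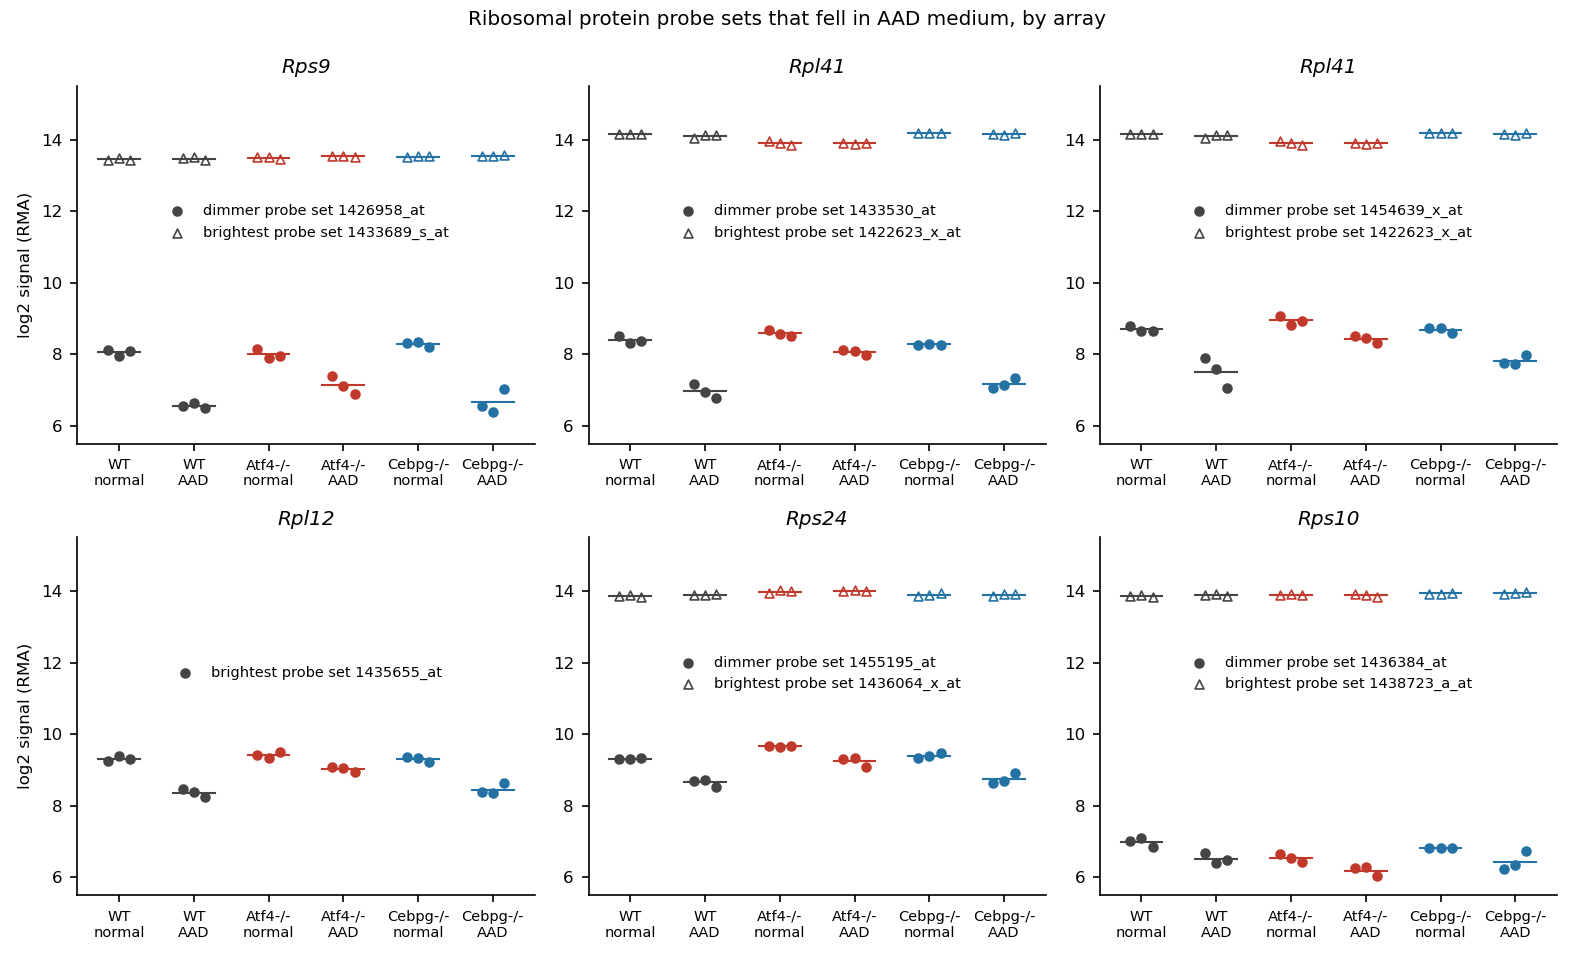
The y axis is the log2 RMA signal on each array, and the x axis gives the 6 groups with 3 arrays each. Circles show the probe set that fell in AAD medium, open triangles the brightest probe set of the same gene (Rpl12 has a single one), and lines the group means. In WT cells the circles of Rps9 go from 7.94 to 8.12 in normal medium down to 6.50 to 6.62 in AAD medium, while the triangles stay between 13.42 and 13.51.

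The second question was whether the response to AAD medium differed between genotypes. Between Atf4-/- and WT cells 2 members were called, where 12.8% of all genes were: the response of Rpl12 was higher by 0.57 ± 0.11 (limma, adjusted p = 0.00326) and that of Rps19bp1 by 0.30 ± 0.09 (limma, adjusted p = 0.0271), both falling less in Atf4-/- cells. The difference in Rpl12 was called under all 19 alternatives run. That in Rps19bp1 was lost in the fit of these groups alone and without any of 5 arrays: WT AAD replicate 1, WT normal replicate 2, WT AAD replicate 3, Atf4-/- AAD replicate 2 or Atf4-/- normal replicate 3. Among the other probe sets, the response of Rpl41 1433530_at differed by 0.91 ± 0.13 (limma, adjusted p = 0.000245) and that of 1454639_x_at by 0.67 ± 0.21 (limma, adjusted p = 0.0495). For Rps9 1426958_at the difference of 0.62 ± 0.20 missed the threshold (limma, adjusted p = 0.0517).

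Between Cebpg-/- and WT cells limma called 0 of the 48 members, where 0.226% of all genes were called. The smallest adjusted p was 0.711, and 1 member, Rpl39, with a difference of 0.16, had an unadjusted p under 0.05. For the 36 bright genes the 95% intervals of this difference lay within ±0.3 for all 36. Both knockouts were set against the same WT arrays, so their differences from WT are not independent.

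The third question was how the knockouts differed from WT cells in the same medium. In normal medium 14 members were higher and 10 lower in Atf4-/- than in WT cells, 24 of 48, where 51.5% of all genes were called. Among the bright members 15 of 36 were called, where 56.8% of the genes with a mean of at least 12 were. In AAD medium 13 were higher and 8 lower, 21 of 48, where 54.3% of all genes were called, and 14 of the 36 bright members were, where 51.7% of the genes with a mean of at least 12 were. The members' share of calls was at or below that of all genes in both media. Of these, 19 were called in the same direction in both media, a share of 19 of 24 and of 19 of 21. The matching share over all genes is not given here, so this overlap cannot be read as particular to the members. The split depends on the scale. With each array centred on the median of the genes tested, 6 were higher and 17 lower in normal medium, and 7 were higher and 10 lower in AAD medium. The members' median difference was 0.038 in each medium as deposited and -0.034 and -0.029 after centring. The labels do not say how many embryos each genotype came from, so genotype and culture cannot be told apart.

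Rps6, the S6 kinase substrate of the small subunit, had the largest rise in normal medium. It read 9.98, 10.03 and 9.93 in WT and 10.42, 10.51 and 10.35 in Atf4-/- cells, without overlap. It was higher by 0.44 ± 0.06 in normal medium (limma, adjusted p = 7.2e-06) and by 0.54 ± 0.06 in AAD medium (limma, adjusted p = 7.76e-07). Rps27, a zinc finger protein of the small subunit, read 7.52, 7.57 and 7.51 in WT and 7.98, 7.94 and 7.83 in Atf4-/- cells. It was higher by 0.38 ± 0.05 in normal and 0.35 ± 0.05 in AAD medium.

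The next rises in normal medium were small and mostly of bright probe sets. Rps3, a small subunit protein that also acts in DNA repair, was higher by 0.27 ± 0.04, and Rpl13a, known for its role in silencing inflammatory mRNAs, by 0.22 ± 0.05. With the mean of all probe sets the difference of Rpl13a was 0.10 in normal medium (limma, adjusted p = 0.0531) and 0.089 in AAD medium (limma, adjusted p = 0.0793). Rps27l (0.21), Rpl19 (0.19), Rps19 (0.15), Rpl7 (0.15) and Rplp0 (0.15) were higher too, without overlap between the groups. Rpl37 was higher by 0.23, but its arrays overlapped. The remaining 4 called rises, of Rps20, Rps24, Rps7 and Rpl4, were between 0.11 and 0.14. Of the 13 alternatives run for each, Rpl4 lost its call under 12, Rps24 under 6, Rps20 under 5 and Rps7 under 4. Rpl37 lost it under 6 of 12, and Rpl7, Rplp0 and Rps19 under 2 each, which were the centred arrays and the compared groups alone. In AAD medium Rpl12 had the largest difference, 0.67 ± 0.08 (limma, adjusted p = 3.12e-06), with arrays from 8.95 to 9.08 in Atf4-/- and from 8.24 to 8.46 in WT cells. In normal medium its difference was 0.10, and it was not called.

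Rps25 was the small subunit gene that fell most. It read 10.51, 10.72 and 10.68 in WT and 9.99, 9.93 and 9.96 in Atf4-/- cells in normal medium. It fell by 0.68 ± 0.07 in normal (limma, adjusted p = 5.05e-07) and by 0.57 ± 0.07 in AAD medium (limma, adjusted p = 2.71e-06). In Cebpg-/- cells it read 10.66, 10.63 and 10.53 in normal medium, and its difference from WT was -0.03. Among large subunit genes Rpl41 was lower by 0.26 ± 0.05, Rpl14 by 0.27 ± 0.09, Rpl11 by 0.16 ± 0.04 and Rpl37a by 0.15 ± 0.05 in normal medium. RPL11 is the protein that, with RPL5, binds MDM2 when ribosome assembly is disturbed. Rpl7l1, a relative of Rpl7 that acts in pre-rRNA processing, was lower by 0.21 ± 0.07. Among these falls Rpl7l1 lost its call under 4 of 13 alternatives, Rpl14 under 3 and Rpl37a under 2. Rps19bp1 was lower by 0.21 ± 0.06 in Atf4-/- and higher by 0.29 ± 0.06 in Cebpg-/- cells.

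The probe sets of a gene did not always move together between genotypes. The called members had 26 other tested probe sets in normal medium, of which 12 were called in the direction of the gene and 1 in the opposite one, and 24 in AAD medium, with 13 and 5. Over all probe sets 47.5% and 49.8% were called. Rps3 was higher on its brightest probe set, but its probe set 1455600_at read 9.03, 9.11 and 8.92 in WT and 8.71, 8.61 and 8.67 in Atf4-/- cells, lower by 0.36 ± 0.07 (limma, adjusted p = 0.000437). Averaged over its probe sets Rps3 differed by -0.0012 in normal medium and -0.12 in AAD medium, against 0.27 on its brightest probe set. Rpl41 was lower on its brightest probe set, while 1433530_at differed by 0.18 in normal medium and was higher by 1.10 ± 0.09 in AAD medium (limma, adjusted p = 8.8e-08). Rpl22 did not differ on its brightest probe set (-0.05), while its probe set 1448398_s_at was higher by 0.74 ± 0.11 in Atf4-/- (limma, adjusted p = 3.17e-05) and by 0.37 ± 0.11 in Cebpg-/- cells (limma, adjusted p = 0.0221). In AAD medium Rpl13a 1433928_a_at (-0.13; limma, adjusted p = 0.0453) and Rps24 1436500_at (-0.40; limma, adjusted p = 0.0237) also ran against the brightest probe set of their gene. Rps24 1436500_at has a mean of 5.13, near the floor, and differed by -0.08 in normal medium. The other Rps24 probe sets were all higher in AAD medium, by 0.11 to 0.58. The direction of Rps3, Rpl41 and Rpl13a in Atf4-/- cells therefore depends on the probe set. Under the 13 alternatives run, Rpl13a and Rps24 reversed under 0 in either medium.

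**Figure D3:**
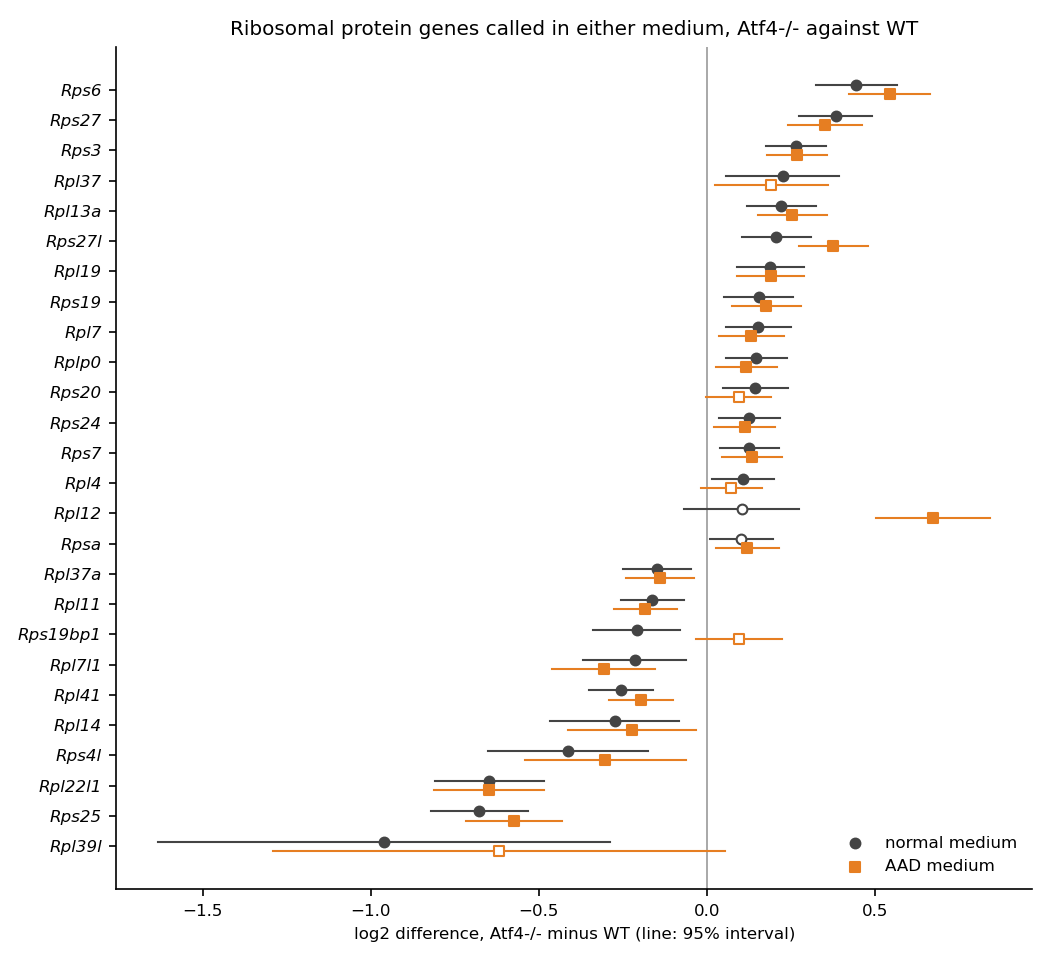
The x axis is the log2 difference of Atf4-/- minus WT for each ribosomal protein gene called in at least 1 medium, and each row of the y axis is a gene. Circles show normal medium and squares AAD medium, filled where called, with 95% intervals as lines. Rpl22l1 (-0.65 in both media) and Rps25 (-0.68 and -0.57) lie far to the left, and Rpl12 is the gene with the widest gap between the media (0.10 and 0.67).

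Paralogues encode relatives that can take the place of a canonical ribosomal protein in some tissues. Rpl22l1, Rpl39l and Rps4l were lower in both knockouts than in WT cells in normal medium. Rpl22l1 read 12.84, 12.67 and 12.65 in WT, 12.12, 12.20 and 11.90 in Atf4-/- and 12.47, 12.38 and 12.40 in Cebpg-/- cells in normal medium. The 3 groups did not overlap. It was lower by 0.65 ± 0.08 in Atf4-/- (limma, adjusted p = 2.96e-06) and by 0.30 ± 0.08 in Cebpg-/- cells (limma, adjusted p = 0.00903). In AAD medium it was lower by 0.65 ± 0.08 and 0.24 ± 0.08, and the second call was lost without any of 5 of the 6 arrays compared (all but WT AAD replicate 3).

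Rpl39l, the testis paralogue of Rpl39, had the widest differences and the widest spread. In normal medium it read 9.43, 10.05 and 9.59 in WT, 8.89, 9.16 and 8.14 in Atf4-/- and 8.23, 8.56 and 7.44 in Cebpg-/- cells. In AAD medium it read 9.22, 9.92 and 9.41 in WT, 9.07, 9.26 and 8.36 in Atf4-/- and 8.18, 8.40 and 7.85 in Cebpg-/- cells. The Cebpg-/- arrays lay below all WT arrays, and replicate 3 was the lowest array in each of the 4 knockout groups. Its difference in Cebpg-/- cells was -1.61 ± 0.32 in normal medium (limma, adjusted p = 0.00161) and -1.38 ± 0.32 in AAD medium (limma, adjusted p = 0.004). Against WT, the Atf4-/- cells were lower by 0.96 ± 0.32 in normal medium (limma, adjusted p = 0.018), a call lost without WT replicate 2 or without Atf4-/- replicate 3. In AAD medium the Atf4-/- difference of -0.62 was not called.

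Rps4l, a relative of Rps4x, read 10.54, 10.64 and 10.47 in WT, 10.27, 10.24 and 9.91 in Atf4-/- and 10.27, 10.36 and 10.02 in Cebpg-/- cells in normal medium. Both knockouts lay below WT without overlap. It was lower by 0.41 ± 0.11 in Atf4-/- (limma, adjusted p = 0.00541) and by 0.34 ± 0.11 in Cebpg-/- cells (limma, adjusted p = 0.0399). The Cebpg-/- call in normal medium was lost under quantile normalization and without any of 5 arrays (WT replicates 1, 2 and 3, Cebpg-/- replicates 1 and 3). In AAD medium it was lower by 0.30 ± 0.11 in Atf4-/- and by 0.32 ± 0.11 in Cebpg-/- cells, the first call lost without any of 4 arrays and the second under 7 of 13 alternatives. On their brightest probe sets the partners Rpl22, Rpl39 and Rps4x were not called in either knockout in either medium. The pair of Rps27 and Rps27l ran the other way in Atf4-/- cells, where both were higher.

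**Figure D4:**
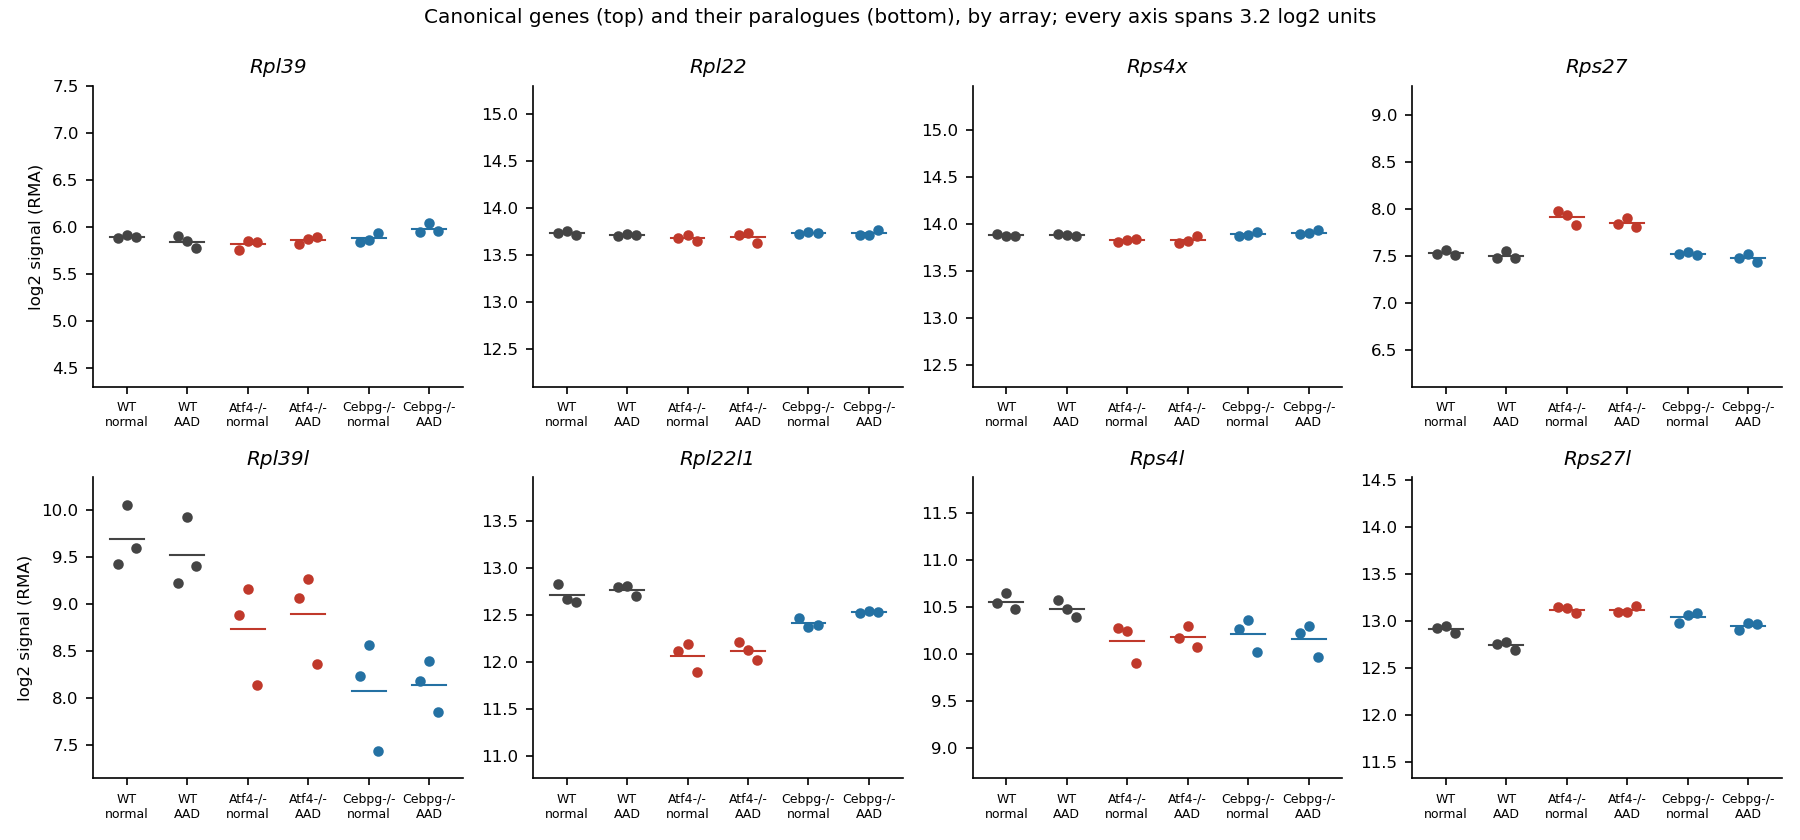
The top row shows Rpl39, Rpl22, Rps4x and Rps27 and the bottom row their paralogues Rpl39l, Rpl22l1, Rps4l and Rps27l. The y axis is the log2 RMA signal on each array, with the same span in every panel, and the x axis gives the 6 groups. Lines are group means. In normal medium Rpl39l, Rpl22l1 and Rps4l lie lower in both knockouts than in WT, for Rpl22l1 with means of 12.72 in WT, 12.07 in Atf4-/- and 12.42 in Cebpg-/- cells.

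On the brightest probe sets few members differed in Cebpg-/- cells. In normal medium 4 members were called, 1 higher and 3 lower, where 23.3% of all genes and 22.7% of the genes with a mean of at least 12 were called. The 1 higher was Rps19bp1, which read 9.54, 9.61 and 9.50 in Cebpg-/- and 9.26, 9.28 and 9.25 in WT cells. In AAD medium 5 were called, where 29.5% of all genes and 29% of those with a mean of at least 12 were: Rps19bp1 (0.37) and Rps27l (0.20) were higher and Rpl22l1, Rps4l and Rpl39l lower. All 4 called in normal medium were called in the same direction in AAD medium, but the matching share over all genes is not given here. The other 54 tested probe sets of the members gave rises only. There were 5 in normal medium, where 20.2% of all probe sets were called, and 6 in AAD medium, where 24.5% were. They include Rps9 1434624_x_at (0.38 and 0.43 in the 2 media), Rpl22 1448398_s_at (0.37 and 0.34), Rps3 1455600_at (0.33 and 0.28) and Rpl7l1 1426386_at (0.18 and 0.26), and the rest belong to Rps27l. Rpl22l1, Rpl39l and Rps4l, the members that were lower, have no other probe set. The 54 other probe sets therefore cannot show whether these falls recur.

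The members' weight in the total signal was nearly the same in all groups. They held 5.61% to 5.68% of the summed linear signal of the genes tested in WT cells in normal medium and 5.59% to 5.65% in AAD medium. In Atf4-/- cells the shares were 5.73% to 5.82% and 5.77% to 5.82%, and in Cebpg-/- cells 5.77% to 5.81% and 5.71% to 5.84%. All knockout arrays lay above all WT arrays in this share, by little.

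Other genes of protein synthesis were described from 3 further lists. Of 76 mitochondrial ribosomal protein genes, 2 rose and 47 fell in WT cells, with a median change of -0.22, where 28.2% of all genes were called, and 2 rose and 26 fell in Cebpg-/- cells, with a median of -0.14, where 21.9% were. Mrpl44 fell by 0.84 and Mrpl41 by 0.83 in WT cells. Limma called 0 of the 76 in Atf4-/- cells, where 4.7% of all genes were called. There 5 had an unadjusted p under 0.05, and the median was -0.03. The response differed between Atf4-/- and WT cells in 19 of the 76, where 12.8% of all genes differed. Of the 19, 17 were higher in Atf4-/- cells. In AAD medium 53 of the 76 were higher and 6 lower in Atf4-/- than in WT cells, where 54.3% of all genes were called. In Cebpg-/- cells 44 were higher and 0 lower, where 29.5% were. Many differed in normal medium too. There 42 of the 76 were called in Atf4-/- cells, where 51.5% of all genes were, and 24 in Cebpg-/- cells, where 23.3% were. At an unadjusted p under 0.05 in normal medium, 30 were higher and 17 lower in Atf4-/- and 36 higher and 0 lower in Cebpg-/- cells. The response of Cebpg-/- cells differed from that of WT cells in 0 of the 76, where 0.226% of all genes differed. Of the 76, 5 had an unadjusted p under 0.05.

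Of 26 other TOP-type genes, which encode translation factors and hosts of small nucleolar RNAs, 7 rose and 2 fell in WT cells in AAD medium, 34.6% of the list, near the 28.2% of all genes. Snhg12 (1.56) and Snhg1 (0.94), small nucleolar RNA host genes, and Eif4a2 (0.72), an initiation helicase, had the largest rises. In Cebpg-/- cells 6 rose and 0 fell, where 21.9% of all genes were called. Limma called 0 of the 26 in Atf4-/- cells, where 4.7% of all genes were called. None of the 26 had an unadjusted p under 0.05 there. The response of 5 was lower in Atf4-/- than in WT cells, by 1.48 for Snhg12, where 12.8% of all genes differed. The level of Snhg12 was, however, higher in Atf4-/- than in WT cells, by 2.62 in normal and by 1.13 in AAD medium. Snhg1 was higher by 0.78 in normal medium. At an unadjusted p under 0.05, 8 of the 26 were higher and 5 lower in Atf4-/- cells in normal medium. Of 35 ribosome biogenesis genes, 4 rose and 7 fell in WT cells. In Atf4-/- cells 0 rose and 5 fell, where 4.7% of all genes were called. In Cebpg-/- cells 1 rose and 4 fell, where 21.9% of all genes were called. The share called was 31.4% in WT cells, near that of all genes. Grwd1, a chaperone of RPL3, fell by 0.72 in WT, 0.51 in Atf4-/- and 0.63 in Cebpg-/- cells.

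**Figure D5:**
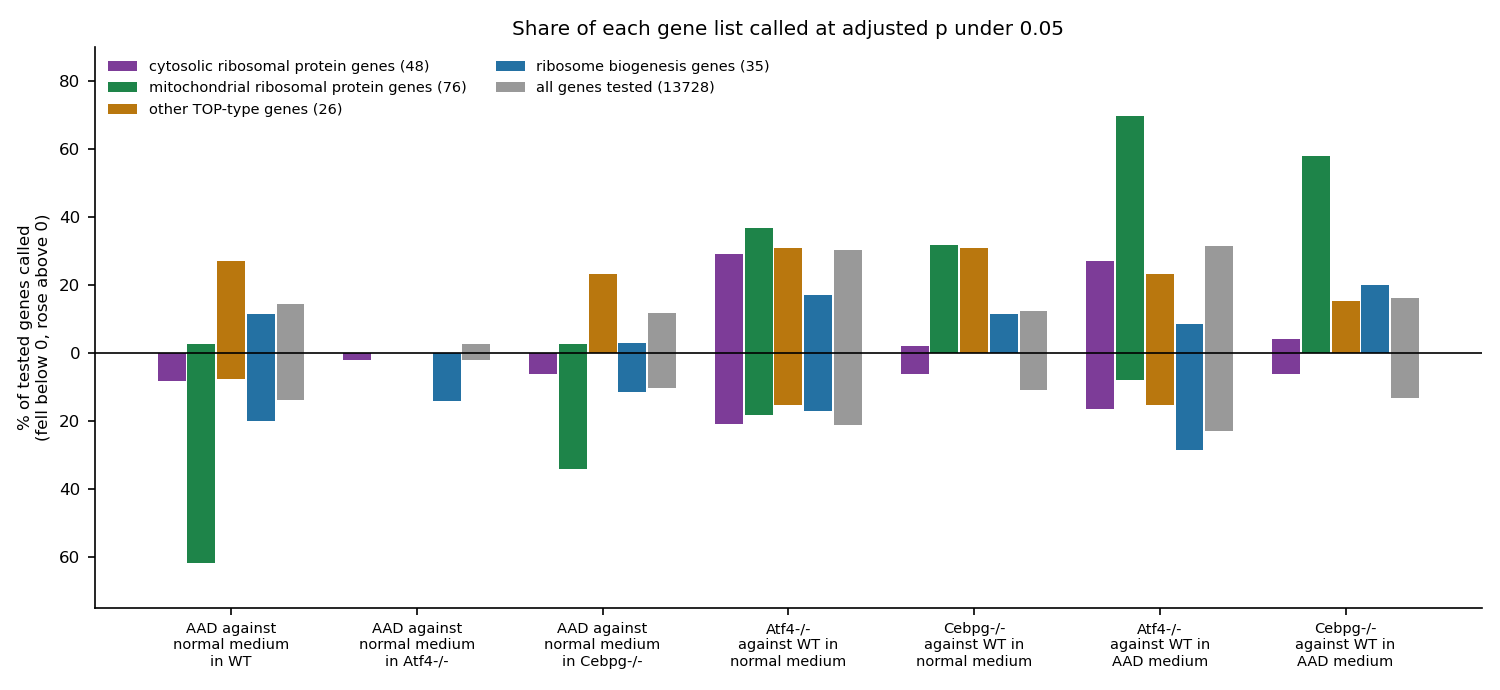
Bars give the percent of tested genes of each list that were called, rises above 0 and falls below 0, for the 7 comparisons of a pair of groups on the x axis. The numbers of genes tested are in the legend. In AAD medium the cytosolic ribosomal protein genes have no rises and 4, 1 and 3 falls of 48, whereas 47 of 76 mitochondrial ribosomal protein genes fell in WT cells.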

How the data were processed

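The authors deposited 1 table of log2 expression values for 45101 probe sets on 18 arrays, made with RMA, per the submitters' processing notes (version not given in the sources used here). Probe sets were named from GEO's platform annotation, with symbols updated through Entrez identifiers against RefSeq: 34958 listed 1 symbol, 932 several and 9211 were not listed, and only those with 1 symbol were used. The probe set with the highest mean stood for a gene. A gene was tested if its mean reached 4.65, the 40th percentile over the table, in any group. The remaining 13728 genes were fitted in limma 3.58.1 (R 4.3.3) on 6 group means, which leaves 12 residual degrees of freedom, and p-values were adjusted by Benjamini-Hochberg over all of them. There were 9 comparisons: 3 responses to AAD medium, 2 differences of responses and 4 of genotypes. The fit was checked on data with known changes. Where probe sets match near-identical family copies, signals may mix genes: 13 of the 50 probe sets used carry the suffix _x_at or _s_at.

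The members and the gene lists were chosen with earlier results of these data known. Named genes are up to 10 called members with the largest change in each direction of a comparison, the 5 highest and 5 lowest signals, stalk proteins, paralogues and their partners, members with roles outside the ribosome, and up to 3 called genes in each direction of the other lists.

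Replicate numbers in the labels paired arrays across media: residuals of arrays of the same genotype and number correlated between 0.30 and 0.69 in all 9 pairs. Across genotypes the same number gave correlations from -0.24 to 0.19, so it does not pair them. With the number as a block within genotype, 4, 2 and 3 members were called in AAD medium in WT, Atf4-/- and Cebpg-/- cells.

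Alternatives were no floor, quantile normalization, centring on the median, the mean of all probe sets, no _x_at or _s_at probe sets, a replicate block, the compared groups alone and leaving out each array. For comparisons of genotypes that block took the replicate number as shared across genotypes, although the number does not pair them. A fit over every probe set, a separate count of genes with a mean of at least 12 and a description of other genes at the level of the brighter members were added after seeing the data.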

Additional observations from a re-analysis of the deposited data

Results flagged for a closer look

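The tests of the difference in response singled out 4 results, all between Atf4-/- and WT cells. The response of Rpl12 to AAD medium was higher by 0.57 in Atf4-/- cells, and that of Rps19bp1 by 0.30. On probe sets that were not the brightest of their gene, the response of Rpl41 1433530_at was higher by 0.91 and that of Rpl41 1454639_x_at by 0.67. All 4 fell in AAD medium in WT cells, from means of 9.31, 9.26, 8.40 and 8.70 to 8.36, 8.87, 6.96 and 7.51.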

How the results depend on the processing

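Counts of called members moved by over 1.5 times as follows; causes were not tested beyond what each setting leaves out. For AAD medium in WT cells (4), 7 were called with the mean of all probe sets, 7 without _x_at or _s_at probe sets and 2 with the compared groups alone. In Atf4-/- cells (1) it was 2 after centring, 2 with the mean of all probe sets, 4 without _x_at or _s_at probe sets and 2 with the replicate block. In Cebpg-/- cells (3) it was 5 with the mean of all probe sets and 6 without _x_at or _s_at probe sets. For the response difference of Atf4-/- cells (2) it was 4 without _x_at or _s_at probe sets and 1 with the compared groups alone. With the compared groups alone 14 were called for Atf4-/- against WT in normal medium (24) and 3 for Cebpg-/- against WT in AAD medium (5). With the mean of all probe sets 7 were called for Cebpg-/- against WT in normal medium (4). The replicate block moved no other count past 1.5 times.

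Leaving out 1 array at a time gave 2 to 4 calls in WT cells (2 without WT normal replicate 2), 0 to 2 in Atf4-/- (0 without AAD replicate 3, 2 without normal replicate 3) and 2 to 3 in Cebpg-/- cells for AAD medium, 1 to 2 and 0 to 0 for the response differences of Atf4-/- and Cebpg-/- cells, 18 to 22 and 15 to 18 for Atf4-/- against WT in normal and AAD medium, and 3 to 4 and 3 to 5 for Cebpg-/- against WT. The 3 in AAD medium came without WT replicate 2 and without Cebpg-/- replicates 1 or 3.

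Each result for a single called member was rerun under 12 to 19 alternatives. Counted over all these reruns, 698 kept direction and call, 140 kept direction only and 5 reversed. With the mean of all probe sets Rps3 was -0.001201 and -0.118 for Atf4-/- against WT in normal and AAD medium, and Rpl41 0.387 in AAD medium. Without _x_at or _s_at probe sets Rpl41 was 0.183 and 1.098. With 3 arrays per group the precision of small differences is limited, and signals near the top of the scale may understate changes, which was not tested.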
